A study of Drosophila melanogaster with 6 samples.

Results

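The genes described here encode the nuclear subunits of respiratory complex I, the NADH dehydrogenase of the mitochondrial inner membrane, in larvae of Drosophila melanogaster. They were chosen by name: 41 nuclear genes have a current symbol that starts with ND-, Ndufa or Ndufb in the RefSeq gene table, and 31 of them were tested among 7801 genes in all. Of the other 10, 7 had no probe set listed in the probe table used, 1 shared its probe set with another gene and 2 lay below the signal filter. Of the 41 genes, 10 are X-linked and 31 autosomal, and 9 and 22 of these were tested.

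Male larvae in the third instar were used, 50 to a preparation, and no dissection is described. The mutant group carried the genotype y+ w roX1- roX2-/ Y, with SMC17A as the roX1 allele (3 arrays). The control group was y+ w roX1+ roX2-/ Y (3 arrays), which the labels call wildtype although both groups carried roX2- and differed at roX1. Each array is 1 of 3 RNA preparations per genotype that the design text calls independent, measured on its own Affymetrix Drosophila Genome 2.0 array with 1 colour. The MSL complex raises transcription of the male X chromosome and contains the noncoding RNAs made by roX1 and roX2, so the comparison asks how expression of X-linked and autosomal genes differs when roX1 is mutated as well. Neither RNA has a named probe set in the table used, so the genotype was not checked at roX1.

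Complex I takes electrons from NADH, passes them along a chain of iron-sulphur clusters to ubiquinone and pumps protons across the inner membrane. It is L-shaped: a peripheral arm in the matrix holds the NADH site, the clusters and the quinone site, and a membrane arm pumps protons. Its core subunits carry out catalysis, accessory subunits surround them, and the membrane core is encoded by mitochondrial DNA. The nuclear genes lie on the X chromosome and on autosomes, so the assembled enzyme combines products of both. The 7 mitochondrial subunit genes were not analysed here.

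Values are signals after each array was scaled so that the median autosomal gene is 100, and differences are log2 of mutant over control. Passing means an adjusted p under 0.05 (Benjamini-Hochberg) in limma, fitted over all 7801 genes. Values at the same gene are compared between arrays, and levels of different genes are not compared, since probes differ in brightness. In bulk RNA of larvae a smaller number of cells of one type and less RNA per cell cannot be told apart. Arrays correlated across genes at 0.972 or more within the mutant, 0.984 or more within the control and 0.889 to 0.926 between the groups. Mutant array 1 was closest to the controls (mean r = 0.922, against 0.894 and 0.901 for the other 2), so counts are also given without it. Larval salivary gland, fat body, midgut and muscle markers were measured at 7 of 7, 6 of 11, 9 of 12 and 11 of 18 listed genes, and nervous system markers at 1 of 10. Of these salivary genes 0 rose (limma; 0 at an unadjusted p under 0.05) and 6 fell, of the fat body genes 3 rose and 1 fell, of the midgut genes 2 rose and 2 fell, and the 1 nervous system gene, elav, fell. With unscaled values 2 salivary genes fell and elav did not pass, and with quantile scaling 2 salivary genes fell. The part of these tissues in the results below was not tested. Beside the counts stand the shares over all genes tested, 23.1% rising and 32.4% falling.

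Of the 31 tested complex I subunit genes, 6 rose, 3 fell and 22 did not pass, where 23.1% of all genes tested rose and 32.4% fell. All 6 rises were autosomal, at ND-42, ND-51, ND-39, ND-B17, ND-24L and ND-51L2, and all 3 falls were X-linked, at ND-20, NdufA3 and ND-B14.5A. On X, 3 of 9 subunit genes fell (33.3%), against 48.1% of all X-linked genes, and 0 rose, against 10.4% (limma; 1 at an unadjusted p under 0.05). On the autosomes 6 of 22 rose (27.3%), against 25.3% of all autosomal genes, and 0 fell, against 29.8% (limma; 2 at an unadjusted p under 0.05). These rises include ND-24L, a dim copy that passed the signal filter through its mutant values. Without the copies 4 of 17 autosomal subunit genes rose (23.5%). The shares of rises on the autosomes and of falls on X were thus near or below those of the chromosomes, and are no result about the subunit genes. The median difference was -0.23 for the 9 X-linked and 0.17 for the 22 autosomal subunit genes, beside -0.29 and -0.02 for all X-linked and all autosomal genes.

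The counts depended on mutant array 1, on the scaling and on the signal filter. Without that array 13 subunit genes rose and 2 fell, the added rises being ND-13B, ND-SGDH, ND-19, ND-B14.5B, ND-B14.7 and the X-linked ND-18 and ND-75, while 23.3% of all genes rose and 32.2% fell. With the deposited values left unscaled 13 rose and 1 fell, while 30.8% of all genes rose and 21.9% fell and the median of all genes moved by 0.13. ND-75 then made 1 rise on X, as it also did with all-gene and quantile scaling. Without control array 1 or control array 2 only ND-20 still fell. With no signal filter 33 subunit genes were tested and 4 fell, beside 25.6% of all genes. The added fall was at ND-B8 or ND-B12, both autosomal. With the upper 75% by signal kept, 32 were tested and 3 fell. An added autosomal gene was among these, since ND-B14.5A no longer passed (limma adjusted p = 0.0548). That all falls were X-linked thus holds only among the 31 genes above the filter.

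**Figure D1:**
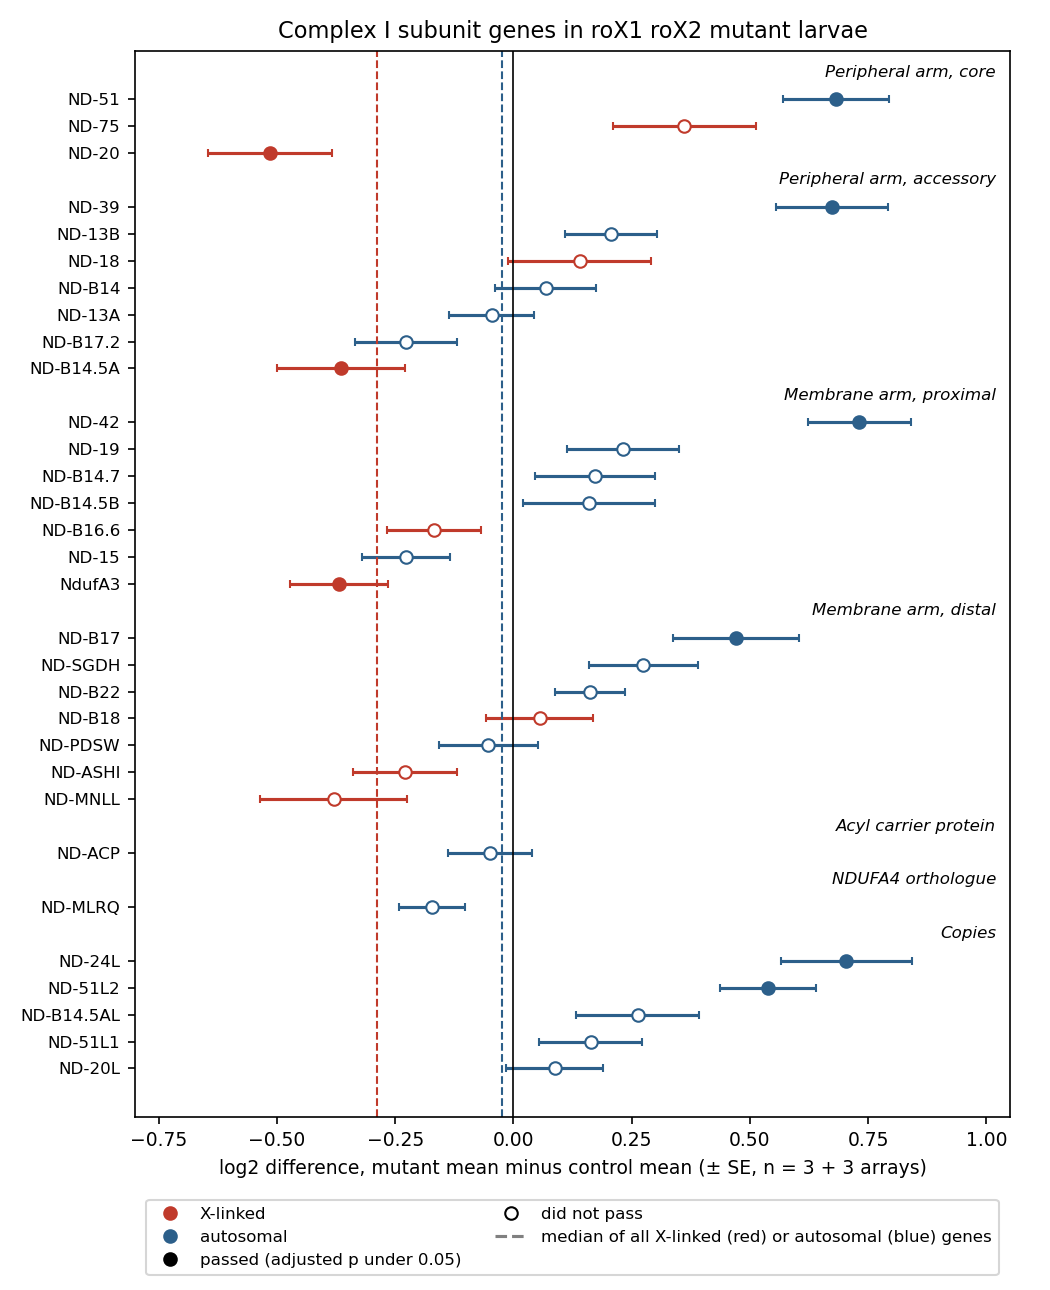
Log2 difference (mutant mean minus control mean, bars 1 SE, 3 arrays per group) of the 31 tested complex I subunit genes, grouped by their place in the complex, X-linked in red and autosomal in blue, filled where the gene passed. Dashed lines mark the medians of all X-linked genes (-0.29) and all autosomal genes (-0.02). The filled points right of 0 are all blue and those left of 0 all red.

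In the core of the peripheral arm 3 of 7 nuclear genes were tested, and each behaved differently. ND-51 encodes the orthologue of mammalian NDUFV1, which binds NADH and the flavin cofactor that first takes up the electrons. The scaled ND-51 signal was 279, 337 and 334 on the mutant arrays against 219, 178 and 195 on the control arrays. Every mutant array lay above every control array, and the gene rose by 0.68 (SE 0.112, limma adjusted p = 0.0015), or 1.6-fold.

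ND-20, the orthologue of NDUFS7, holds the last iron-sulphur cluster before ubiquinone and is X-linked. Its scaled signal was 141, 186 and 194 in the mutant against 258, 254 and 226 in the control. All mutant arrays lay below all control arrays, mutant array 1 lowest, and ND-20 fell by 0.51 (log2 -0.51, SE 0.131, limma adjusted p = 0.0112) and passed in all 16 alternatives. ND-75, the X-linked orthologue of NDUFS1 and the largest of the cluster-bearing core subunits, stood at 71.5, 93.9 and 89.2 in the mutant against 79.3, 56.6 and 63.0 in the control. Mutant array 1 lay within the control range here, and the difference of 0.36 did not pass (SE 0.151, adjusted p = 0.0727), though it did without mutant array 1 (0.48, adjusted p = 0.0185) and without control array 1 (0.50, adjusted p = 0.0225). ND-23, ND-30, ND-24, which is X-linked, and ND-49, which lies on chromosome 4, had no probe set listed in the table used.

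Among 7 tested accessory subunits of the peripheral arm 1 rose and 1 fell (14.3% each, beside 23.1% and 32.4% of all genes). ND-39, the orthologue of NDUFA9, which sits beside the quinone site, gave 350, 471 and 433 in the mutant against 253, 248 and 281 in the control. The groups did not overlap, and the rise was 0.67 (SE 0.118, adjusted p = 0.00212), 1.59-fold. ND-B14.5A, the X-linked orthologue of NDUFA7, gave 139, 179 and 196 in the mutant against 239, 217 and 202 in the control. The lowest control and the highest mutant value were close, and its fall of 0.37 (log2 -0.37, SE 0.135) passed narrowly (adjusted p = 0.049). That call was lost in 11 of 16 alternatives, among them each array left out except mutant array 3.

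The other X-linked gene of this group, ND-18, is the orthologue of NDUFS4, a late-assembled subunit at the base of the NADH module whose loss in humans causes Leigh syndrome. Its signal was 112, 159 and 156 in the mutant against 145, 123 and 116 in the control, with the groups overlapping on mutant array 1, and the difference was 0.14 (SE 0.151, adjusted p = 0.456). Without mutant array 1 it was 0.30 and passed (adjusted p = 0.0448). The autosomal genes ND-13A, ND-13B, ND-B14 and ND-B17.2 ran from -0.23 at ND-B17.2 to 0.21 at ND-13B, and their arrays overlapped between groups. ND-B8 lay below the signal filter, with signals of 15.8 to 20.0 in the mutant and 23.9 to 28.2 in the control.

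In the proximal membrane arm 1 of 7 tested genes rose and 1 fell (14.3% each, beside 23.1% and 32.4% of all genes). ND-42 encodes the orthologue of NDUFA10, an accessory subunit related to nucleoside kinases. Its signal was 357, 468 and 439 on the mutant arrays against 262, 253 and 242 on the control arrays. Even the lowest mutant array lay well above the controls, and the rise of 0.73 (SE 0.109, adjusted p = 0.00101), 1.66-fold, was the largest among the tested subunit genes.

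NdufA3, a small X-linked single-span membrane subunit, gave 253, 312 and 293 in the mutant against 378, 392 and 336 in the control. The groups were separate, and the gene fell by 0.37 (log2 -0.37, SE 0.103, adjusted p = 0.0164), a call lost without control array 1 (adjusted p = 0.0515), without control array 2 (0.0647) and with unscaled values (0.0659). ND-15, the orthologue of NDUFS5, which faces the intermembrane space and is encoded on 2L, gave 375, 447 and 443 in the mutant against 491, 525 and 464 in the control. All mutant values lay below the control values, but the difference of -0.23 did not pass (95% interval -0.44 to -0.01 by limma, adjusted p = 0.067). ND-B16.6, the X-linked orthologue of NDUFA13, also known as GRIM-19, gave 324, 408 and 395 against 426, 428 and 407, overlapping by 1 array, and its difference was -0.17 (adjusted p = 0.182). ND-19, ND-B14.7 and ND-B14.5B, all autosomal, lay between 0.16 and 0.23 without passing, and each passed without mutant array 1. ND-MWFE had no probe set listed.

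In the distal membrane arm 1 of 7 tested genes rose (14.3%) and 0 fell (limma, with 1 fall at an unadjusted p under 0.05). Over all genes the shares were 23.1% and 32.4%. ND-B17, the orthologue of NDUFB6, has 2 probe sets. The brighter gave 259, 362 and 349 in the mutant against 247, 227 and 220 in the control, and rose by 0.47 (SE 0.133, adjusted p = 0.0172). The dimmer probe set gave 224, 251 and 239 against 162, 157 and 162, a difference of 0.57 in the same direction, with the groups further apart relative to their spread. The call of the brighter probe set was lost without mutant array 2 or 3 or control array 2 or 3 (adjusted p = 0.0531 to 0.0628).

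ND-MNLL, the orthologue of NDUFB1 and X-linked, gave 201, 282 and 288 in the mutant against 372, 334 and 290 in the control. Mutant array 3 and control array 3 were nearly level, and the difference of -0.38 did not pass (95% interval -0.74 to -0.02, adjusted p = 0.0672). ND-ASHI, the X-linked orthologue of NDUFB8, gave 214, 274 and 277 against 297, 301 and 292; all mutant arrays were below all control arrays, at a difference of -0.23 (adjusted p = 0.109). ND-B18, the X-linked orthologue of NDUFB7, gave 213, 285 and 261 against 248, 240 and 236 and did not pass at 0.06 (adjusted p = 0.695), a sign that turned under 1 of the 16 alternatives. The other autosomal genes of this arm, ND-PDSW (-0.05), ND-B22 (0.16) and ND-SGDH (0.28), did not pass. ND-B12 lay far below the signal filter (3.60 to 5.08 in the mutant, 5.76 to 5.94 in the control), ND-B15 had no probe set listed, and ND-AGGG shares its probe set with CG40472.

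**Figure D2:**
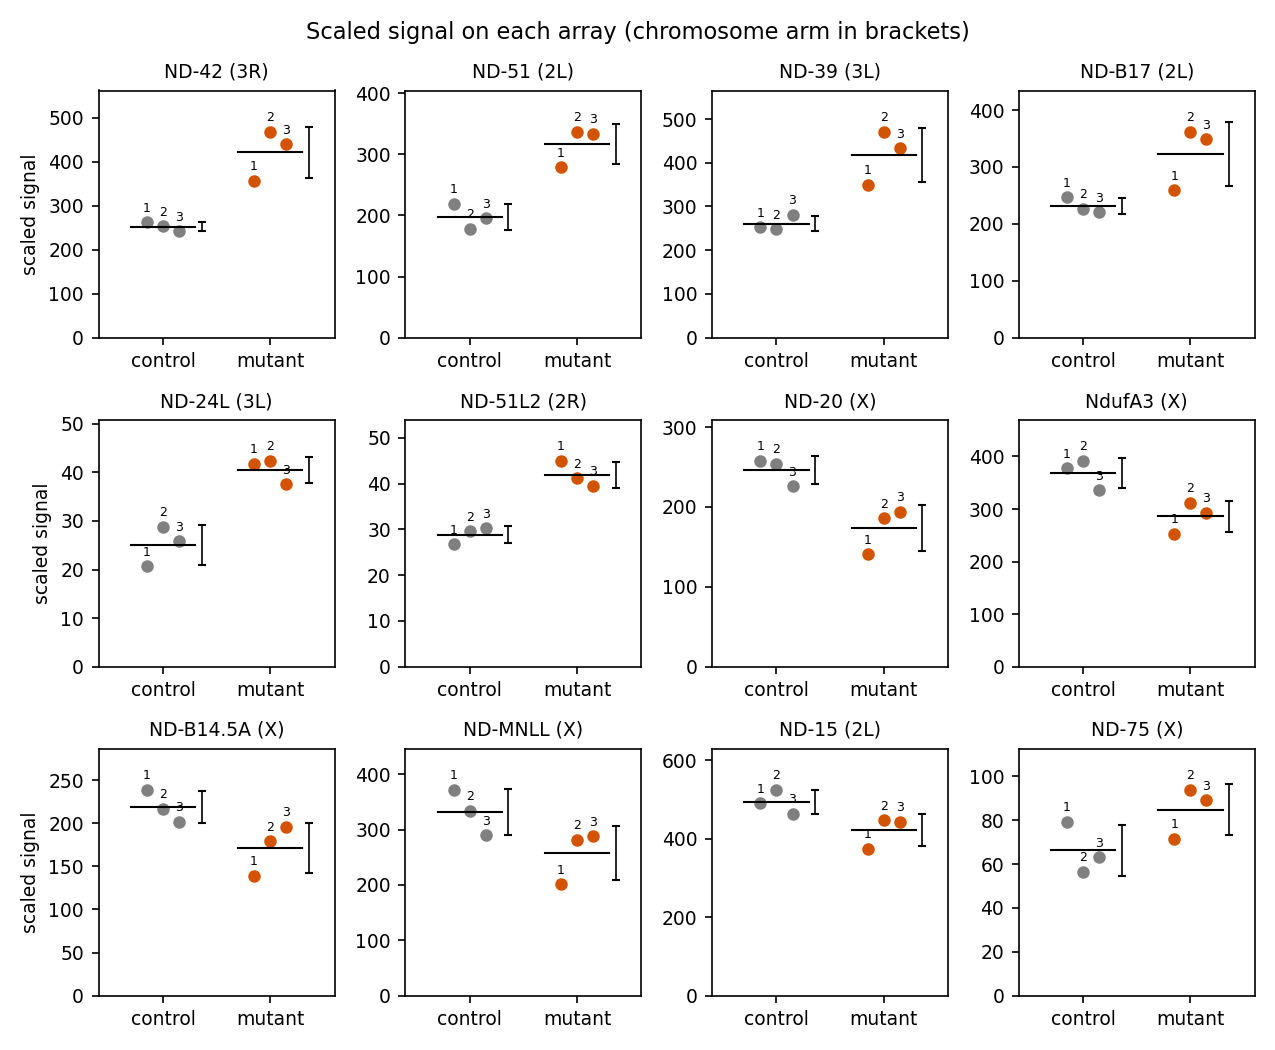
Scaled signal (median autosomal gene 100, linear axes from 0) of the 9 subunit genes that passed and of ND-MNLL, ND-15 and ND-75, with 1 numbered point per array, a line at the group mean and a bar of 1 SD (n = 3). Mutant array 1 is the lowest mutant array in every panel except ND-24L and ND-51L2, where the mutant arrays lie between 37.5 and 45.0.

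Among the remaining single genes, ND-ACP encodes the mitochondrial acyl carrier protein, which also serves fatty acid and lipoate synthesis. Its 3 probe sets gave differences of -0.18, -0.05 and 0.01, and the brightest did not pass (adjusted p = 0.66). ND-MLRQ is the orthologue of NDUFA4, which in mammals is now assigned to complex IV. Its signal was 1455, 1698 and 1586 in the mutant against 1775, 1859 and 1703 in the control, all mutant arrays lower, at -0.17 (adjusted p = 0.0646). Without both ND-MLRQ and the copies described next, 4 of 25 genes rose and 3 fell (16% and 12%, beside 23.1% and 32.4% of all genes).

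A family of 6 autosomal genes, whose symbols end in L or L with a number, are copies of subunits of the peripheral arm; such copies are known mostly from the testis. ND-49L had no probe set listed, and 2 of the other 5 rose while 0 fell (limma, and 0 at an unadjusted p under 0.05). Over all autosomal genes 25.3% rose and 29.8% fell, so 5 genes are too few to tell the copies apart from these shares. ND-24L, a copy of the X-linked core gene ND-24, gave 41.8, 42.4 and 37.5 in the mutant against 20.7, 28.8 and 25.8 in the control, a rise of 0.70 (SE 0.139, adjusted p = 0.00355). ND-51L2 gave 45.0, 41.2 and 39.5 against 26.7, 29.6 and 30.3, a rise of 0.54 (SE 0.102, adjusted p = 0.00301). Both groups were separate at each gene, and both calls held in all 16 alternatives. ND-51L1 (0.16), ND-B14.5AL (0.26) and ND-20L (0.09) did not pass. With unscaled values, where 30.8% of all genes rose, 4 of the 5 copies rose, ND-51L1 (adjusted p = 0.0496) and ND-B14.5AL (adjusted p = 0.048) among them.

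Control means of the 5 copies were 25.1 to 46.8, where the median probe set lies at 28.0, so the sizes of their differences are uncertain: with an offset of 50 the ND-24L difference was 0.27 and that of ND-51L2 0.22. The signal filter took the mean over both groups. ND-24L and ND-51L1, with control means of 25.1 and 27.3, stayed in through their higher mutant values. ND-B8, which dropped out, had a control mean of 25.4 and a mutant mean of 18.3, both below the median probe set. At this level the filter can keep a gene that rises and drop one of like control signal that does not. The counts of the copies, and the autosomal rises that include them, thus lean towards rises. The ND-24L call held with no filter (limma adjusted p = 0.00477). The copies did not follow their parent genes in any 1 way. ND-51 and ND-51L2 both rose, whereas ND-20 fell and ND-20L stood at 0.09, and ND-B14.5A fell and ND-B14.5AL stood at 0.26; these contrasts within pairs were not tested, and neither was cross-hybridisation between a gene and its copy. Of 15 listed testis markers 9 were measured, of which 6 rose and 2, sa (-0.50) and bam (-0.88), fell. The summed signal of the 9 was 3867 to 4531 in the mutant and 2992 to 3424 in the control. The part of testis in the result was not tested.

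The distance between X-linked and autosomal subunit genes was seen on each mutant array. The median of the 9 X-linked genes, as deviation from each gene's control mean, was -0.47, -0.12 and -0.10 on the mutant arrays against 0.07, 0.02 and -0.12 on the control arrays. That of the 22 autosomal genes was 0.04, 0.29 and 0.21 in the mutant against 0.02, 0.04 and -0.06 in the control. Taken alone, each median therefore overlapped between the groups: the X-linked one on mutant array 3 and control array 3, the autosomal one on mutant array 1 and control array 2.

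The X-linked minus the autosomal median did not overlap. It was -0.51, -0.41 and -0.31 in the mutant (mean -0.41 ± 0.103, SD, n = 3) and 0.06, -0.03 and -0.05 in the control (SD 0.0576, n = 3), where values lie near 0 by construction. The same value over all genes was -0.27, -0.26 and -0.27 in the mutant. From the fitted differences the subunit genes stood at -0.40 and all genes at -0.26. Whether the 2 values differ was not tested, and no scaling of whole arrays by 1 factor can change either. Without mutant array 1 the subunit value was -0.35. Adding NdufV3 (X-linked, log2 -0.56, adjusted p = 0.0105) and NP15.6 (on 3R, 0.25, adjusted p = 0.0539), the orthologues of NDUFV3 and NDUFB11, whose symbols fall outside the naming rule, gave -0.47; both were named after their values were seen.

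**Figure D3:**
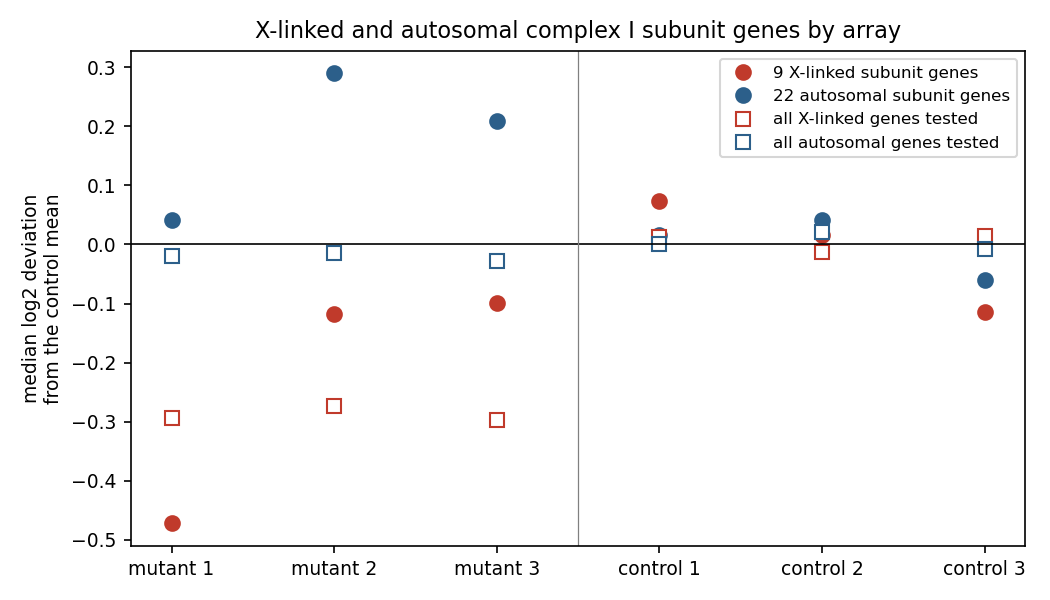
Median log2 deviation from each gene's control mean on the 6 arrays, for the 9 X-linked and 22 autosomal complex I subunit genes (filled circles) and for all X-linked and autosomal genes tested (open squares). The X-linked circle lies below the autosomal one by 0.51, 0.41 and 0.31 on the mutant arrays, while both circles sit lower on mutant array 1 than on the other 2.

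Each X-linked subunit gene was set beside the 10 nearest tested genes, 5 on each side, in the order of the RefSeq table. The median of these neighbours was below 0 at all 9 genes. ND-20 lay in the lowest surroundings, with a neighbour median of -0.85 and 7 of 10 neighbours falling. Its next tested genes on either side, Slc25A46a (-0.88) and eIF5 (-0.83), fell by more than ND-20 itself. ND-B14.5A matched its neighbours (-0.37 against -0.38).

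ND-75, ND-18 and ND-B18, the 3 X-linked subunit genes with differences above 0, had the neighbour medians closest to 0, at -0.03, -0.04 and -0.07. In all, 6 of the 9 lay above the median of their neighbours and 3, ND-ASHI, ND-MNLL and NdufA3, below it. How often any tested X-linked gene lies above its neighbours was not computed. Genes of mitochondrial quality control lay next to 2 of them. On 1 side of ND-B16.6 lay Marf, the mitofusin of mitochondrial fusion, which rose by 0.28 (limma adjusted p = 0.0438), and on the other CG3847 (-0.17). On 1 side of ND-ASHI lay Pink1, the mitochondrial kinase, at 0.29 (adjusted p = 0.0545), and on the other Mcm6 (0.11). Marf and Pink1 were named for their function. How often such genes lie next to other X-linked genes was not computed.

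Of the 22 autosomal subunit genes, 17 lay above the median of their neighbours. The same share over all autosomal genes was not computed, so this count is no result about the subunit genes. ND-39 stood furthest from its surroundings, at 0.67 beside a neighbour median of -0.41, followed by ND-51 (0.68 beside -0.21). ND-42 lay among genes that were also higher, with a neighbour median of 0.44 and 6 of 10 neighbours rising. ND-PDSW, which was nearly level at -0.05, is the tested gene next to msl-2, a protein gene of the MSL complex that stood at 0.24 (adjusted p = 0.198).

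**Figure D4:**
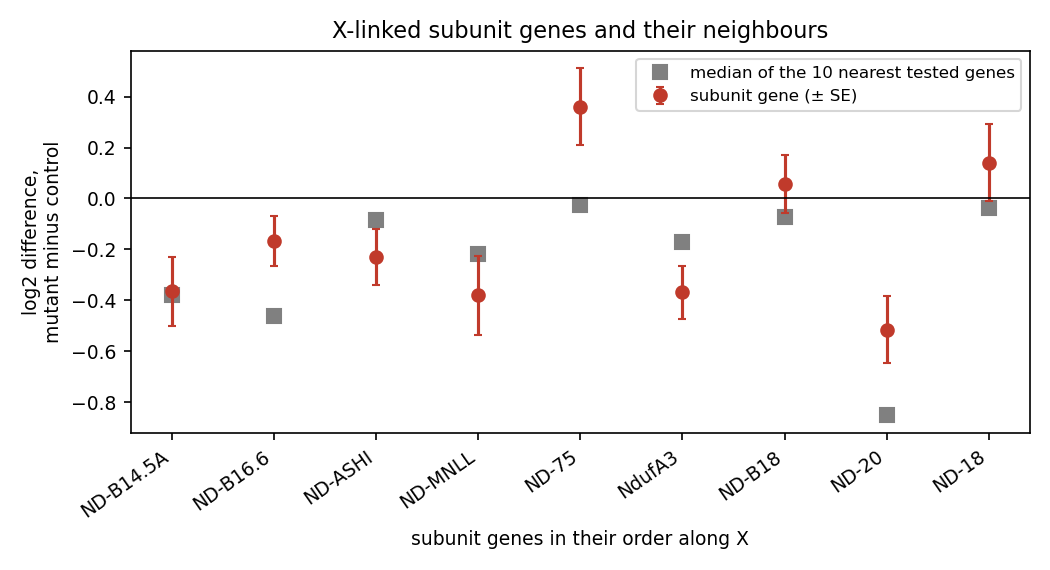
Log2 difference (mutant minus control) of the 9 X-linked subunit genes in their order along the chromosome (red, bars 1 SE) and the median of the 10 nearest tested genes of each (grey squares). ND-20 lies at -0.51 with neighbours at -0.85, while ND-75 lies at 0.36 with neighbours at -0.03.

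Subunit genes moved together from array to array. Leaving out the copies, all 26 tested genes had their lowest mutant value on mutant array 1, which was the lowest mutant array for 37.3% of all genes. In the control group 22 of the 26 were lowest on control array 3, against 34.5% of all genes. The median of the 26 was -0.18, 0.21 and 0.12 on the mutant arrays against 0.06, 0.02 and -0.08 on the control arrays. The copies did not share this: 1 of 5 was lowest on mutant array 1.

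The shared movement enters the standard errors above. When the median of the 26 genes on the same array was subtracted from each gene, a step added after the data were seen and given with no test, the typical SD within a group went from 0.151 to 0.0756 and was smaller for 25 of the 26 genes. On this centred scale ND-42 stood at 0.69, 0.68 and 0.69 on the mutant arrays against 0.00, -0.02 and 0.02 on the control arrays, so that its distance from the other subunit genes was nearly equal in all 3 mutant preparations. ND-39 stood at 0.61, 0.65 and 0.62, and ND-20 at -0.62, -0.61 and -0.45. ND-75 stood at 0.31, 0.31 and 0.33 in the mutant, against 0.22, -0.23 and 0.02 in the control.

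On the centred scale groups did not overlap at 19 of the 26 genes, 9 higher and 10 lower in the mutant. Without centring 5 were higher and 7 lower. Over all genes the centred shares were 19.6% and 29.9%, and the uncentred ones 26.4% and 36.9%. Centring on the members places some above and others below by construction. It also takes out movement that these 26 genes share, and brings that movement into genes that do not share it. The centred shares over all genes are therefore no like measure for the 19 genes. Of the 9 X-linked genes 6 were lower on all mutant arrays, 1 (ND-75) was higher and 2 overlapped, ND-18 and ND-B18. Of the 17 autosomal genes 8 were higher and 4 lower: ND-15, ND-B17.2, ND-MLRQ and ND-PDSW. Centred shares were not computed for X-linked and autosomal genes apart, so these 2 sets of counts have no like share beside them. Without centring 590 of 1111 X-linked genes were lower on all mutant arrays and 130 higher. Of 6684 autosomal genes 2291 were lower and 1930 higher. The centred differences between the groups ran from -0.56 at ND-20 to 0.68 at ND-42.

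**Figure D5:**
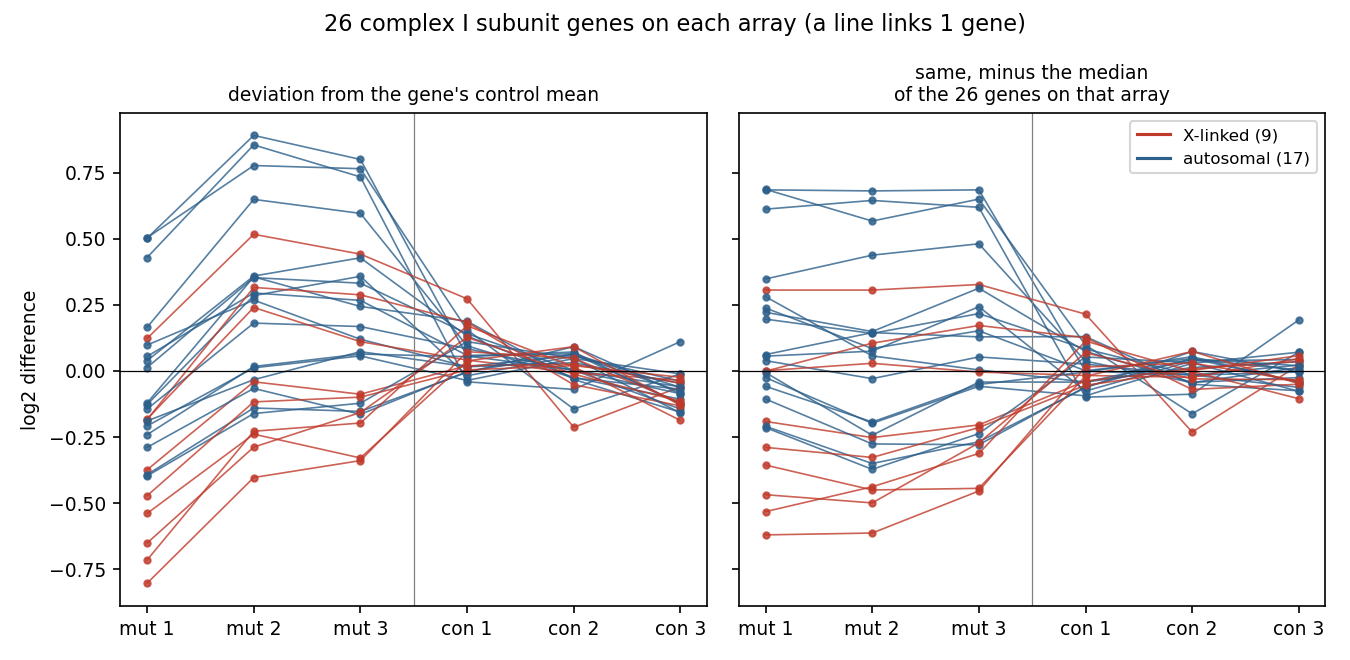
Log2 difference of each of 26 complex I subunit genes (copies left out) on the 6 arrays, with a line linking the values of 1 gene, before (left) and after (right) the median of the 26 genes on that array was subtracted. On the left all lines are lowest among the mutant arrays at mutant 1, and on the right the spread within a group is smaller for 25 of the 26 genes; ND-42 is at 0.69, 0.68 and 0.69, while ND-B22, the exception, is at 0.28, 0.06 and 0.00.

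Other genes of the respiratory chain shared the array pattern. In a list of complexes II to IV and ATP synthase 27 of 29 measured genes were lowest on mutant array 1 among the mutant arrays. Of these 29, 7 rose and 2 fell, with a median of 0.04, among them rises at Cyt-c1 (1.0) and RFeSP (0.89), both of complex III, and at ATPsyngamma (0.56), of the ATP synthase rotor. The 2 falls were the X-linked UQCR-14 (-0.58), also of complex III, and ATPsynepsilonL (-0.58). UQCR-Q, UQCR-6.4 and ox, of complex III too, did not pass. Without mutant array 1, 11 of the 29 rose and 2 fell, where 23.3% of all genes rose and 32.2% fell. With unscaled values on all 6 arrays the counts were again 11 and 2, where 30.8% of all genes rose and 21.9% fell. Muscle markers, from a tissue rich in mitochondria, showed the mutant side of it: all 11 measured were lowest on mutant array 1, 6 rose and 1 fell. Their summed signal was 7513, 9858 and 9566 in the mutant and 7088 to 8121 in the control. On control array 3 only 5 of the 11 were lowest, against 24 of the 29 genes of the other complexes. Summed fat body, midgut and salivary gland signals were each lowest on mutant array 1 and control array 3 within their groups. The summed testis signal was not. The part of muscle or of these other tissues in the subunit results was not tested.

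Of 9 measured assembly factors 0 rose (limma; 0 at an unadjusted p under 0.05) and 3 fell, Nubpl (-0.29), which delivers iron-sulphur clusters to the complex, 140up (-0.38), the orthologue of TIMMDC1, and CG11722 (-0.28), the orthologue of NDUFAF4. With unscaled values 0 fell and 1 rose, and with quantile scaling 3 fell and 1 rose. Of 69 mitochondrial ribosomal protein genes 42 fell and 5 rose, with a median of -0.31, or 28 and 12 with unscaled values. The 3 of smallest p were X-linked: mRpS14 (-1.02), mRpL14 (-0.82) and mRpL33 (-0.91). Of 11 measured genes on a list of mitochondrial biogenesis and dynamics, 4 rose and 2 fell, with bsf, an RNA-binding protein of mitochondrial RNAs, at 0.96, Opa1, the inner membrane fusion dynamin, at 0.82 and mtSSB, which binds single-stranded mitochondrial DNA, at -0.65. The differences between these lists and complex I were not tested. Over all genes 23.1% rose and 32.4% fell.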

How the data were processed

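Each array has a deposited column of linear intensity values, 1 per probe set, made with GCOS 1.2 as far as the submitters' processing notes tell. The series' design text says that the authors filtered by present calls and set the autosomal median to 100, a scale the deposited values do not show. How probes were summarised was not given in the sources used here. No depth applies: 3 arrays per group limit precision. The members, gene lists and comparisons were chosen with earlier results of these data known.

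Probe sets were named through a platform annotation table, which can be old, updated by gene ID to RefSeq (Release 6 plus ISO1 MT); of 18769, 13647 had 1 gene, 402 several and 4720 none listed. The upper 50% by mean log2 signal were kept, the brightest probe set stood for each gene, and arrays were scaled to an autosomal median of 100 (factors 0.246 to 0.280). Values at or below 0 (113 to 169 per array) took the lowest positive value. limma 3.58.1 (trend) in R 4.3.3 was tested on simulated data first. All members were named; values array by array were given for those that passed, the X-linked ones, ND-42, ND-15 and ND-MNLL, and for ND-MLRQ, added after its values were seen. NdufA3 was placed in the proximal arm as the NDUFA3 orthologue. Probe sets of 6 members (ND-20, ND-MNLL, ND-PDSW, ND-15, ND-19 and ND-B14.7) carry the suffix for probes shared by several transcripts.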

Additional observations from a re-analysis of the deposited data

How the results depend on the processing

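Over 16 alternatives the 33 single genes gave 528 values, of which 485 stayed on the same side of the threshold. A call was lost in 18 and gained in 25, and none reversed a call. Near 0, ND-13A, ND-ACP, ND-B18 and ND-PDSW changed sign in 1 to 3 alternatives. The count of rises, 6, was 13 with unscaled values and 5 to 13 on leaving out 1 array (13 without mutant array 1). The count of falls, 3, was 1 with unscaled values and 1 to 4 on leaving out 1 array (1 without control array 1 or 2). With no signal filter it was 4 of 33 genes. Unscaled values raise all mutant arrays relative to controls, so the cause of that change is the scaling itself; the cause of the others was not tested. The median over subunit genes, 0.14, ran from 0.05 to 0.18 on leaving out 1 array and from 0.06 to 0.27 otherwise. The X-linked minus autosomal value, -0.40, ran from -0.47 to -0.35 and from -0.47 to -0.34. With the replicate block 6 rose and 2 fell (ND-B14.5A no longer passed, adjusted p = 0.0975), and it changed no other count by over 1.5 times. Same-numbered arrays did not deviate together (r = -0.342, -0.064 and -0.385), and 0 of 6 arrays correlated best with the array of their own number. Dim signal limits the copies, ND-B8 and ND-B12.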
